A study of Homo sapiens with 6 samples.

Results

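Complement is a cascade of blood and tissue proteins that tags and lyses target cells. The classical pathway starts with the C1 complex, whose proteases C1r and C1s are held in check by C1 inhibitor. The alternative pathway builds a convertase from C3 and factor B, and the cell's own surface is guarded by factor I and the membrane proteins CD46, CD55 and CD59. Tubular epithelium of the kidney is known to make some of these proteins locally, among them C3. Interferon gamma and NF-kB signalling are known to induce several of the component genes.

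This account covers 9 complement genes, taken by symbol from the 58395 genes of the deposited table. The components were C1R, C1S, C3 and CFB. The soluble regulators were CFI and SERPING1, and the membrane regulators were CD46, CD55 and CD59. All 9 were found, each in 1 row. Expression was measured by RNA sequencing of total RNA from 786-O, an established human renal carcinoma line without functional VHL, in 3 libraries with a control guide, named sgControl, and 3 from cells whose PLOD2 gene had been ablated by CRISPR/Cas9 (sgPLOD2). PLOD2 encodes a lysyl hydroxylase of collagen. Both groups were grown in RPMI-1640 with fetal bovine serum and antibiotics, and no other treatment is given. Whether the sgPLOD2 cells were a clone or a pool, and whether replicates were separate cultures, is not given in the sources used here, so the p-values below cover just the spread between libraries, which may be technical.

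The label was checked first. PLOD2 stood at 26.8, 25.7 and 21.5 FPKM (fragments per kilobase of gene, scaled to all mapped fragments) in sgControl and at 5.98, 10.1 and 6.64 FPKM in sgPLOD2, a fall of the mean to 30.7% of control (limma adjusted p = 0.000509). Of 11 markers of renal carcinoma, PAX8, KRT8, KRT18 and VIM were well above 1 FPKM in every library. CA9 was listed at 0 in all 3 sgControl libraries and at 0.317, 0.368 and 0.285 FPKM in sgPLOD2. NDUFA4L2 and MME also averaged under 1 FPKM. Without overlap, NDUFA4L2 was lower and MME higher in sgPLOD2. The leukocyte markers CD3E, MS4A1 and AIF1 were listed at 0 in all 6 libraries. Library sgControl 1 stood apart by its mitochondrial share, 12.9% of FPKM against 6.01% to 7.5% in the others. FPKM summed to between 229485 and 268612 per library. Size factors recovered from genes detected in 1 library each ran from 0.926 to 1.089, so the libraries were of like depth. Leukocyte markers summed to 12.1 to 18.9 FPKM over 9 genes in sgControl against 7.85 to 8.77 FPKM in sgPLOD2, most of it CD68, which was called lower. Against that sum, CSF1R was called higher, from 0.567 to 2.13 FPKM in the mean, and LYZ was higher without overlap. Fibroblast markers summed to 0.710 to 0.987 against 3.38 to 3.69 FPKM over 8 genes. Most of it was COL1A1, with means of 0.489 FPKM in sgControl and 2.94 FPKM in sgPLOD2. Of the 8, 4 were higher without overlap, LUM was lower in the mean and DCN was listed at 0 throughout. The part of leukocyte and fibroblast markers in the results was not tested.

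C3 fell in sgPLOD2 to 11.9% of the control level. C1R, C1S, CFB and CFI were all under 1 FPKM, with lower values in each sgPLOD2 library than in any sgControl library. SERPING1, almost absent from control cells, had higher values in each sgPLOD2 library. No change was called for CD46, CD55 or CD59. Because these are bulk samples, fewer expressing cells and less RNA per cell cannot be told apart.

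Counts of members were read against all genes, since the groups differed broadly. Tests were run with limma on log2(FPKM + 1) for the 10469 genes averaging 1 FPKM or more, at an adjusted p under 0.05. That fit called 52.9% of genes, 29.5% higher and 23.5% lower. Of its calls 55.7% were higher, against 66.8% after rescaling to equal totals (TPM) and 45.2% among genes of at least 5 FPKM. Of the 4 members tested, 1 was called, C3, in the lower direction. The other 5 members lay under 1 FPKM and were not tested there. Groups did not overlap for 6 of the 9 members, 5 lower and 1 higher, against 54.1% of all genes averaging 0.05 FPKM or more, so the count itself is near the background.

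**Figure D1:**
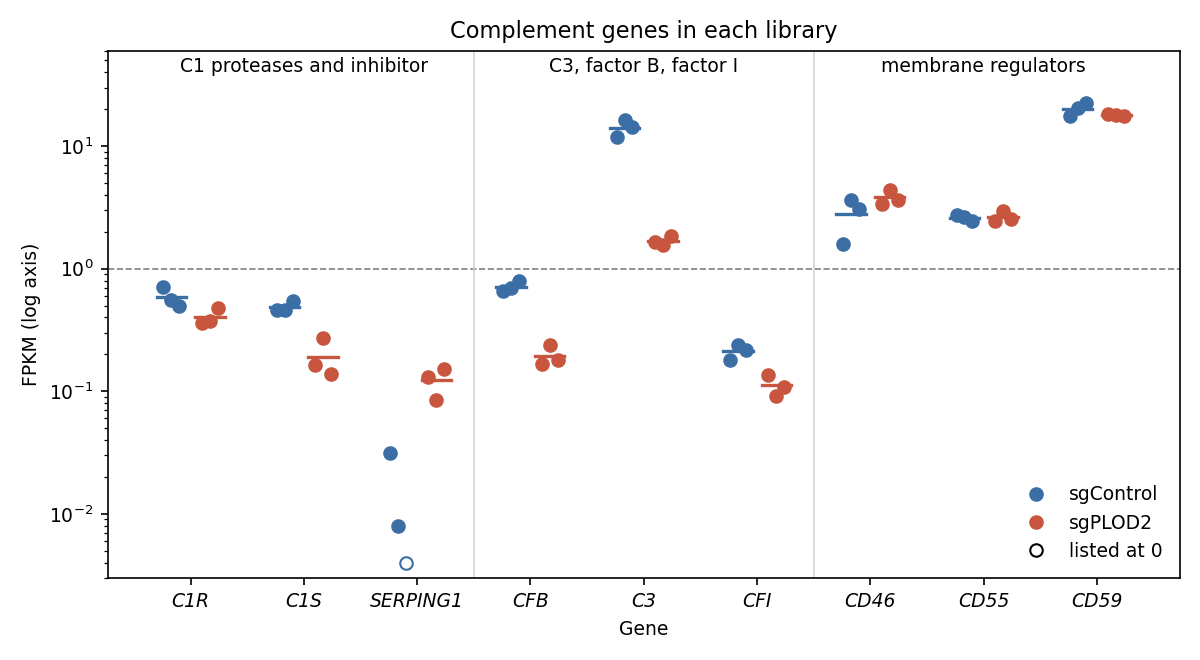
FPKM of the 9 complement genes on a log axis, with 1 point per library, sgControl in blue and sgPLOD2 in red; horizontal bars are group means and the dashed line marks 1 FPKM. C3 drops from 14.1 to 1.69 FPKM, the 5 genes under the line separate by group, and the membrane regulators overlap; the open circle is SERPING1 listed at 0, drawn at the foot of the axis, and no mean is drawn for that group.

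C3 (ENSG00000125730; GRCh38, chromosome 19, 6677704 to 6730562, minus strand, protein-coding) encodes the protein on which all pathways converge. It read 11.8, 16.2 and 14.4 FPKM in sgControl, against 1.65, 1.55 and 1.86 FPKM in sgPLOD2. The lowest control library was thus far above the highest sgPLOD2 library. Group means were 14.1 ± 2.20 and 1.69 ± 0.16 FPKM (SD, n = 3 each). Its log2 fold change was -2.48 ± 0.13 (SE; limma adjusted p = 1.26e-05). In the authors' deposited table, which rests on normalized counts, the log2 fold change of C3 was -3.15 ± 0.18 (SE). C3 shares 649 bases of its span with GPR108 on the same strand, which had a mean of 16.4 FPKM in sgControl and 13.1 FPKM in sgPLOD2. How reads in shared bases were assigned is not given in the sources used here.

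CFB (ENSG00000243649; chromosome 6, 31945650 to 31952084, plus strand) encodes factor B, the protease of the alternative pathway convertase. It stood at 0.658, 0.700 and 0.786 FPKM in sgControl, against 0.166, 0.237 and 0.181 FPKM in sgPLOD2, without overlap. The mean in sgPLOD2 was 27.2% of that in sgControl. Without a filter on low values, CFB had a log2 fold change of -0.52 ± 0.057 (SE; limma adjusted p = 0.00249), in a fit that called 24.3% of 28706 genes. The scale of log2(FPKM + 1) compresses such low values. With a pseudocount of 0.1 in place of 1, chosen after seeing the data, it was -1.47 ± 0.19 (SE; limma adjusted p = 0.00337), in a fit that called 24.4% of genes. The authors' deposited table gave CFB -1.94 ± 0.24 (SE), a mean normalized count of 321 and an adjusted p of 1.32e-14. A read-through gene that covers CFB, AL645922.1, was listed at 0 in every library.

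CFB was the only member with the letters of an interferon-stimulated response element in a promoter window, so its sites are shown. RefSeq starts were found for 6 of the 9 members, in 11 windows of 250 bases before a start (GRCh38.p14). C3, C1S and SERPING1 had no entry. Letters searched on both strands were GAAANNGAAA for an interferon-stimulated response element, TTCNNNGAA for a gamma-activated site, GGGANNNNCC for an NF-kB site and TTGCNNAA for a C/EBP site. Each site below is printed 5′ to 3′ on the plus strand, with the match in capitals.
CFB response element, chr6:31945945-31945974: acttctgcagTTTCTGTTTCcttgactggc
CFB gamma-activated site, chr6:31945992-31946021: ccgcttggatgTTCCGGGAAagtgatgtgg
CFB upstream NF-kB site, chr6:31945900-31945929: ggtactgaagGGGAGAGTCCtggacctttg
CFB downstream NF-kB site, chr6:31945974-31946003: cagctcagcgGGGCCCTCCCgcttggatgt

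Relative to the RefSeq start at 31946095, the response element spans -140 to -131 and the gamma-activated site -92 to -84. Over 35116 windows of the same length, 3.02% held the response element, 6.57% the gamma-activated site, 22.6% the NF-kB letters and 9.05% the C/EBP letters. The annotated CFB gene begins at 31945650, so these sites lie inside it. Over both C1R starts, the windows held 1 gamma-activated site, 1 NF-kB match and 2 C/EBP matches. Overlapping CD59 windows held 1 gamma-activated site between them, and another CD59 window held 2 C/EBP matches. Windows of CD46, CD55 and CFI held none of these letters. A match describes letters only, and nothing was measured on binding.

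C1R and C1S encode the paired proteases of the C1 complex and are neighbours on chromosome 12. C1S (ENSG00000182326; 6988259 to 7071032, plus strand) had 0.462, 0.462 and 0.547 FPKM in sgControl, against 0.163, 0.274 and 0.138 FPKM in sgPLOD2. The groups did not overlap, and the sgPLOD2 mean was 39.1% of control. C1R (ENSG00000159403; 7080214 to 7092540, minus strand) had 0.707, 0.554 and 0.497 FPKM in sgControl, against 0.359, 0.372 and 0.475 FPKM in sgPLOD2. Its groups came close, with sgControl 3 and sgPLOD2 3 next to each other, and the sgPLOD2 mean was 68.6% of control.

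C1S passed the test without a filter and C1R did not. Their log2 fold changes there were -0.32 ± 0.060 (SE; limma adjusted p = 0.0130) and -0.18 ± 0.076 (SE; limma adjusted p = 0.166). With a pseudocount of 0.1 their limma adjusted p were 0.0240 and 0.184. The authors' deposited table called both, with log2 fold changes of -1.43 ± 0.29 (SE) for C1S and -0.63 ± 0.24 (SE) for C1R and adjusted p of 7.4e-06 and 0.0290. A direct comparison did not set them apart: the C1R to C1S ratio was 1.53, 1.20 and 0.909 in sgControl and 2.21, 1.36 and 3.44 in sgPLOD2, and a 2-sided exact permutation test of its log2 gave p = 0.2, where 0.1 is the smallest possible.

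Both protease genes overlap other genes. C1S shares 9170 bases with EMG1 on its own strand and 30252 bases with LPCAT3 on the other strand. EMG1 ranged from 14.5 to 19.7 FPKM over the 6 libraries and was not called, whereas LPCAT3 was called higher, with a log2 fold change of 0.35. C1R shares 3021 bases with its paralog C1RL on the same strand, which read between 0.619 and 1.11 FPKM.

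SERPING1 (ENSG00000149131; chromosome 11, 57597387 to 57614848, plus strand) encodes C1 inhibitor, which inactivates C1r and C1s. It was listed at 0.0315, 0.00799 and 0 FPKM in sgControl, against 0.131, 0.0840 and 0.152 FPKM in sgPLOD2. All sgPLOD2 values were above all control values, yet every value was under 0.2 FPKM. Its mean normalized count in the authors' deposited table was 33.2, so 199 normalized counts over all libraries lie behind the whole comparison. That table gave a log2 fold change of 3.15 ± 0.91 (SE) and an adjusted p of 0.00230. Without a filter, limma gave 0.15 ± 0.027 (SE) and an adjusted p of 0.0122. SERPING1 was therefore the member with separated groups in the higher direction. Among the 7873 genes with a mean of 0.05 to 1 FPKM, groups were separated in the higher direction for 26.3% and in the lower direction for 16.3%. Of the 5 members in that range, 1 was separated in the higher and 4 in the lower direction.

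Protease and inhibitor were also set against each other within each library. The log2 ratio of C1S to SERPING1, on FPKM + 1, was 0.503, 0.537 and 0.629 in sgControl and 0.0396, 0.233 and -0.0178 in sgPLOD2. For C1R to SERPING1 it was 0.727, 0.624 and 0.582 in sgControl and 0.265, 0.340 and 0.357 in sgPLOD2. Both ratios were lower in each sgPLOD2 library than in any control library. The 2-sided exact permutation test gave p = 0.1 for each, the smallest value that 3 libraries against 3 allow. Both outcomes were fixed by the separations of C1R, C1S and SERPING1 given above, so the ratios add no further evidence.

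CFI (ENSG00000205403; chromosome 4, 109740694 to 109802179, minus strand) encodes factor I, the protease that cleaves C3b. It had 0.181, 0.238 and 0.215 FPKM in sgControl, against 0.135, 0.0916 and 0.108 FPKM in sgPLOD2. Its groups did not overlap, and the sgPLOD2 mean was 52.8% of control. Without a filter, CFI had a limma adjusted p of 0.0265, which became 0.0681 with a pseudocount of 0.1, so the call depended on that setting. The authors' deposited table gave -1.003 ± 0.33 (SE), with an adjusted p of 0.00981. The deposited table called 35.5% of the 22870 genes with an adjusted p, and 6 of the 9 members, 5 of them lower and 1 higher.

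C3 was low in sgPLOD2 also relative to its partners. The ratio of C3 to CFB in FPKM was 17.9, 23.1 and 18.3 in sgControl and 9.90, 6.55 and 10.3 in sgPLOD2. The ratio of C3 to CFI was 65.3, 68.1 and 66.6 in sgControl and 12.2, 16.9 and 17.2 in sgPLOD2. Neither ratio overlapped between groups. For both, the 2-sided exact permutation test on log2 of FPKM + 1 gave p = 0.1, the smallest possible. The wide separation of C3 given above fixed both outcomes, so these tests add no further evidence.

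The 3 membrane regulators protect the cell that carries them. CD59 blocks the membrane attack complex, CD55 speeds the decay of convertases, and CD46 is a cofactor for factor I. CD59 (ENSG00000085063; chromosome 11, 33703010 to 33736479, minus strand) was the most abundant member, at 17.7, 20.3 and 22.6 FPKM in sgControl, against 18.2, 18.0 and 17.7 FPKM in sgPLOD2. The groups overlapped through sgControl 1. Its log2 fold change was -0.16 ± 0.10 (SE; limma adjusted p = 0.230). CD59 was called lower without sgControl 1 (-0.24, limma adjusted p = 0.0416), with chromosome medians removed (-0.35, 0.0264) and after correction for GC content and gene length (-0.56, 0.00460). A second gene, AL049629.2, shares 19458 bases with CD59 on the same strand and read between 0.124 and 1.61 FPKM.

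CD55 (ENSG00000196352; chromosome 1, 207321532 to 207386804, plus strand) had 2.74, 2.66 and 2.44 FPKM in sgControl, against 2.47, 2.93 and 2.54 FPKM in sgPLOD2. The ranges overlapped. The difference was 0.012 ± 0.091 on the log2 scale (SE; limma adjusted p = 0.920). Its sign turned under several settings given in the closing section.

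CD46 (ENSG00000117335; chromosome 1, 207752054 to 207795513, plus strand) had 1.59, 3.66 and 3.05 FPKM in sgControl, against 3.37, 4.41 and 3.65 FPKM in sgPLOD2. A single library, sgControl 1, was low, and the others overlapped. Its log2 fold change was 0.39 ± 0.22 (SE; limma adjusted p = 0.170). Without sgControl 1 it was 0.14 (0.360), and after correction for GC content and gene length -0.0022 (0.995).

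Together the membrane regulators summed to 22.1, 26.6 and 28.1 FPKM in sgControl, against 24.0, 25.3 and 23.9 FPKM in sgPLOD2. CD59 made up 80.3%, 76.2% and 80.5% of that sum in sgControl and 75.7%, 71.0% and 74.0% in sgPLOD2. The log2 of the sum differed by -0.060 between groups, and the 2-sided exact permutation test gave p = 0.6. Control libraries had an SD of 0.176 on this scale, and it rested on the low sum in sgControl 1. Without that library the difference was -0.16, all 3 sgPLOD2 sums lay below both remaining control sums, and the exact permutation test gave p = 0.1, the smallest possible.

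By mean FPKM in sgControl, the order from the highest was CD59, C3, CD46, CD55, CFB, C1R, C1S, CFI and SERPING1. CD46 and CD55 did not differ beyond their spread there, nor did CFB, C1R and C1S stand far apart, between 0.490 and 0.715 FPKM. In sgPLOD2 the order was CD59, CD46, CD55, C3, C1R, CFB, C1S, SERPING1 and CFI. C3 thus moved from the second to the fourth place. CFB and C1S, at 0.195 ± 0.037 and 0.192 ± 0.072 FPKM (SD, n = 3), could not be ordered in sgPLOD2, nor could SERPING1 and CFI.

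The tested genes whose profiles over the 6 libraries were most like those of the tested members were found by the root mean square difference of centred log2(FPKM + 1). For C3 they were the helicase gene HELZ2 (0.080), with 26.3, 32.1 and 28.3 FPKM in sgControl, against 3.82, 4.24 and 4.29 FPKM in sgPLOD2, and ZNF185 (0.082). For CD46 they were LEMD3, an inner nuclear membrane protein gene, and the cyclin gene CCNJ, at 0.045 and 0.056. LEMD3 and CCNJ shared the low value in sgControl 1, at 1.85 and 1.07 FPKM. The endocytic adaptor gene DAB2 and the formin gene DIAPH3 were nearest to CD55, and the dynactin gene DCTN2 and the DNA repair gene FANCC nearest to CD59.

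Most other complement components and receptors were weakly expressed. Of 23 further components, 22 had a mean under 1 FPKM and 7 were listed at 0 throughout. Only CFD, which encodes the protease that activates factor B, was tested. It read 2.62, 1.29 and 1.87 FPKM in sgControl, against 2.92, 2.31 and 2.26 FPKM in sgPLOD2, and was not called (log2 fold change 0.28, limma adjusted p = 0.215). CFD was called higher without sgControl 1 (0.44, limma adjusted p = 0.0319) and after correction for GC content and gene length (0.89, 0.00634). All 10 complement receptors on the list had a mean under 1 FPKM.

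Of 20 further regulators, 5 were tested, of which 2 were called higher and 1 lower, with a median log2 fold change of 0.37 against 0.060 over all genes tested. The thrombomodulin gene THBD rose from 1.05 ± 0.14 to 2.21 ± 0.11 FPKM, by 0.65 on the log2 scale (limma adjusted p = 0.00104). SUSD4, which encodes a membrane inhibitor with complement control domains, rose from 0.948 ± 0.119 to 1.52 ± 0.05 FPKM (0.37, adjusted p = 0.00813, or 0.0735 with quantile normalization). Clusterin (CLU) was not called (-0.089, adjusted p = 0.533). C1QBP, which binds the globular heads of C1q, was more abundant than any member, at 64.5, 91.6 and 81.4 FPKM in sgControl, against 110.1, 91.7 and 111.1 FPKM in sgPLOD2. It was just short of the threshold (0.40, limma adjusted p = 0.0518) and passed it under 6 alternatives (0.0203 to 0.0495).

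CD55 and CD59 are held in the membrane by a glycosylphosphatidylinositol (GPI) anchor, so the enzymes of its synthesis were counted. Of 28 such genes, 22 were tested, 7 called higher and 8 lower, with a median log2 fold change of 0.013. That median changed sign with the scaling: it was 0.14 under TPM, where the median of all genes moved from 0.060 to 0.20, and -0.096 with quantile normalization. The 3 subunit genes of dolichol phosphate mannose synthase, which supplies mannose, were called lower. DPM1 fell from 40.9 ± 0.59 to 21.3 ± 1.03 FPKM, DPM2 from 17.9 ± 2.57 to 7.53 ± 0.50 FPKM and DPM3 from 25.6 ± 4.49 to 9.15 ± 1.31 FPKM (SD, n = 3 each). Their log2 fold changes were -0.91, -1.14 and -1.38. PIGT, of the transamidase that attaches the anchor, fell by 0.73 on the log2 scale (adjusted p = 0.000791). Other genes of this transamidase moved both ways. PIGS and PIGK were called higher (0.66 and 0.44, limma adjusted p of 0.00190 and 0.0350). GPAA1 was called lower (-0.46, 0.00791), and PIGU was not called (-0.16, 0.365).

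Receptors and transcription factors known to induce complement genes moved both ways. Of 24, 21 were tested, 5 were called higher and 9 lower, and the median log2 fold change was -0.25. CEBPB fell from 54.3 ± 11.1 to 13.7 ± 2.75 FPKM and CEBPD from 28.3 ± 7.65 to 8.22 ± 0.88 FPKM (SD, n = 3 each). These encode C/EBP factors of the acute phase response, with log2 fold changes of -1.91 and -1.64 and limma adjusted p of 0.000248 and 0.000523. The NF-kB subunit gene NFKB2 fell by 0.80 on the log2 scale (limma adjusted p = 0.000818). The other NF-kB subunit genes on the list did not move together. RELB was called lower (-0.52, limma adjusted p = 0.00146) and RELA higher (0.45, 0.0355). NFKB1 was not called (0.0034, 0.979).

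Acute phase proteins, a group of secreted proteins induced in inflammation to which C3 and CFB also belong, were lower where tested. Of 16, 5 were tested and all 5 fell, under each scaling tried, with a median of -0.92. Over all genes tested, 23.5% were called lower. The other 11 averaged under 1 FPKM and did not all go 1 way. LBP was higher without overlap, with means of 0.041 and 0.140 FPKM, and SERPINA3 was higher in the mean. Over all 16, groups did not overlap for 9 in the lower and 1 in the higher direction, against 54.1% in either direction among genes averaging 0.05 FPKM or more. Serum amyloid A1 (SAA1) fell from 74.3 ± 8.30 to 20.7 ± 1.69 FPKM and ceruloplasmin (CP) from 4.63 ± 0.71 to 0.727 ± 0.079 FPKM (SD, n = 3 each). SAA2 and SERPINA1 fell by 0.92 and 0.63 on the log2 scale. SAA1 and SAA2 are near-identical, so their reads may have been shared. Hepatocyte markers, which C3 would accompany in liver cells, summed to 0.565 to 0.962 FPKM over 9 genes in sgControl and 0.0902 to 0.107 FPKM in sgPLOD2. ALB stood at 0.524, 0.323 and 0.289 FPKM in sgControl, against 0, 0.00849 and 0 FPKM in sgPLOD2. Of these markers 6 of 9 were lower without overlap, all 9 had a mean under 1 FPKM, and their part in the result was not tested.

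**Figure D2:**
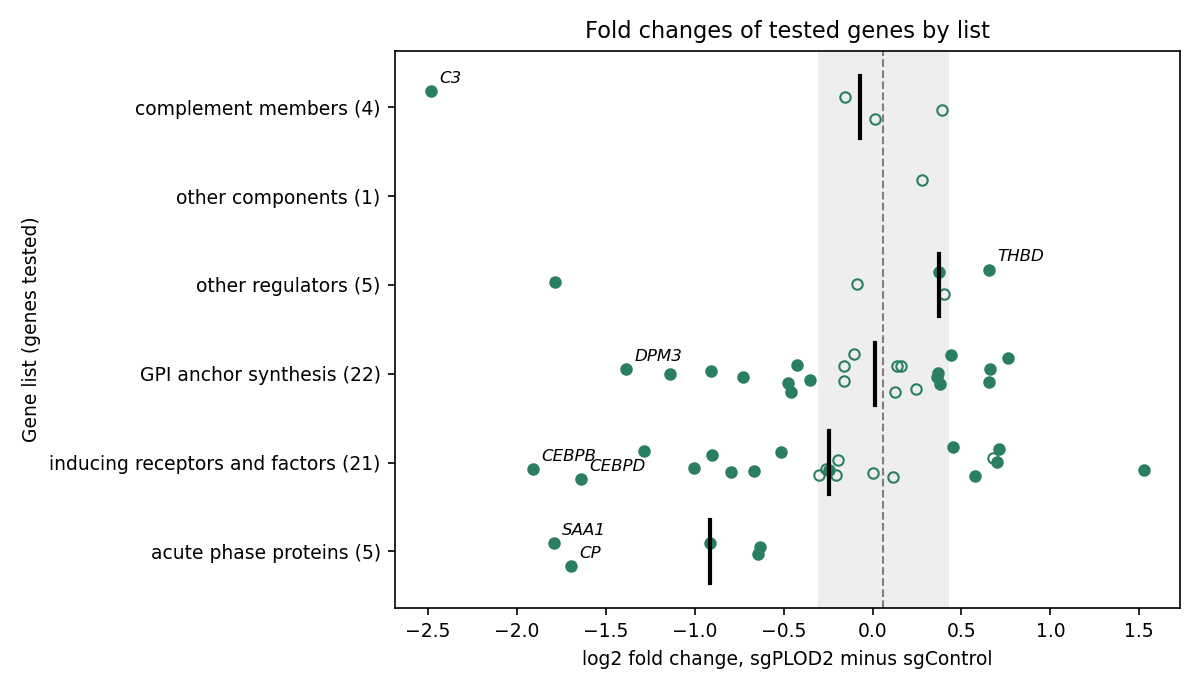
Log2 fold changes of the tested genes in each list, with 1 point per gene, filled where the limma adjusted p was under 0.05; black bars are list medians, the dashed line is the median of all genes tested and the grey band their middle range between the quartiles. C3 lies at -2.48, below every other gene plotted, and all 5 acute phase genes lie on the lower side.

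Median log2 fold changes differed between chromosomes, for example -0.18 on chromosome 19 with C3 and 0.35 on chromosome 6 with CFB, so each member was set beside its neighbours. Within 500 kb of C3, 10 genes were tested, 2 called higher and 6 lower, with a median log2 fold change of -0.30, far from the -2.48 of C3. With the median of each chromosome removed, C3 was still called, at -2.31. Around CFB, in the class III region of the major histocompatibility complex, 10 of 35 neighbours were called higher and 2 lower, with a median of 0.14. Over all genes tested, 29.5% were called higher and 23.5% lower, so the number called higher around CFB is near that share. The median of these neighbours was below the 0.35 of chromosome 6, and the values of CFB itself were lower in sgPLOD2.

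All 4 tested neighbours of CD59 were called higher, with a median of 0.85, against -0.16 for CD59. Around CFI, 5 of 6 were called higher and 0 lower, with a median of 0.58. Around SERPING1, 6 of 13 neighbours were called higher and 3 lower. Around C1R, 1 of 25 was called higher and 11 lower, with a median of -0.28, and the window of C1S held many of the same genes.

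**Figure D3:**
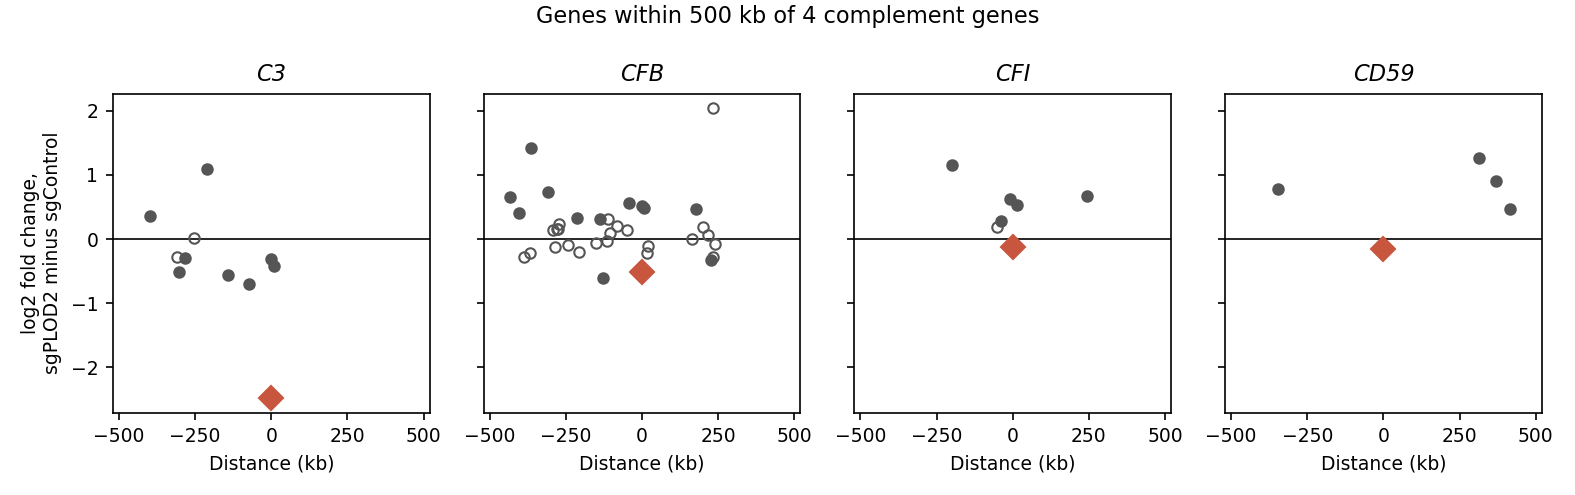
Log2 fold change of each tested gene within 500 kb of C3, CFB, CFI and CD59 against its distance in kilobases, filled where called; the red diamond is the complement gene itself, on the same log2(FPKM + 1) scale, and CFB and CFI were not tested in this fit. C3 lies at -2.48, under every neighbour, and all 4 neighbours of CD59 lie above it.

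Over 20 alternatives C3 was called lower each time, with log2 fold changes from -2.98 to -2.31. CD46 and CD55 were called under none of theirs, and CD59 under 3.

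**Figure D4:**
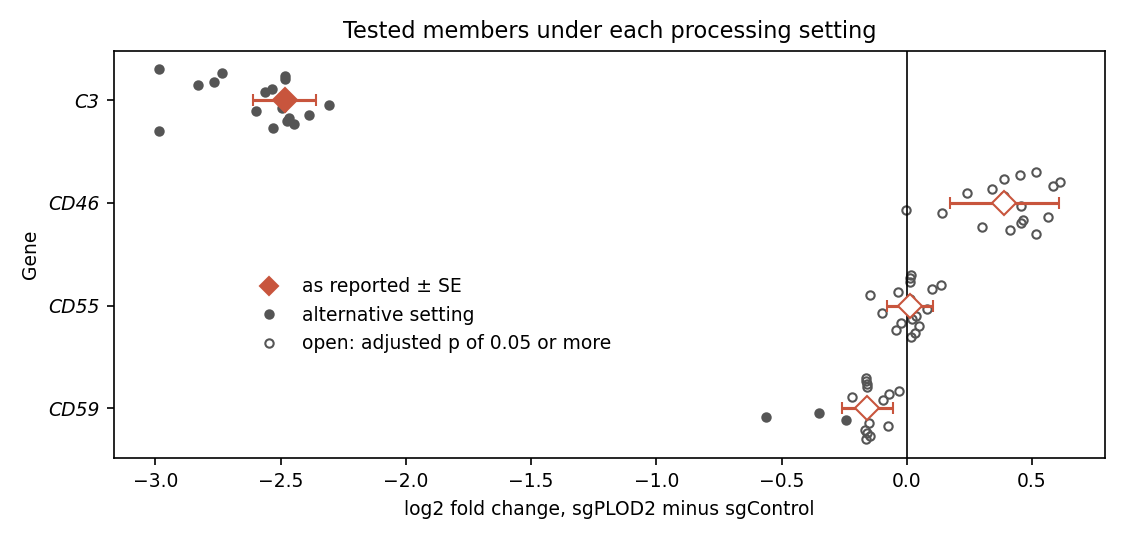
Log2 fold changes of the 4 tested members; red diamonds are the reported values with their SE and small circles the alternative settings, both filled where the adjusted p was under 0.05. C3 stays between -2.98 and -2.31, CD59 is filled under 3 settings, and CD46 and CD55 are open throughout.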

How the data were processed

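RNA from 6 libraries of 786-O cells was measured by sequencing. The submitters' processing notes list CASAVA, HISAT2 2.1.0 and StringTie 1.3.4, and the build GRCh38. How reads were counted, with which annotation and strand setting, was not given in the sources used here. The authors deposited 1 FPKM value per gene and library, per the file headers. The same deposited table holds the authors' comparison: a mean normalized count (a signal averaged over libraries), a log2 fold change with its SE, the score of the test, and raw and adjusted p-values. For genes above 0 in 1 library, 6 times the deposited mean normalized count was a whole number of reads, within 0.02, for 100% of genes under size factors of 0.926 to 1.089. Counts of other genes were not recovered and no count test was run.

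Values of log2(FPKM + 1) were fitted with limma 3.58.1 in R 4.3.3 (eBayes with trend, 2-sided, Benjamini-Hochberg adjustment over 10469 genes, threshold 0.05), sgPLOD2 minus sgControl. Ratios within libraries were compared with exact permutation tests. Simulated data gave recovery of 28.4%, 77.6% and 92.4% of genes given log2 changes of 0.5, 1 and 2. This simulated comparison held 10469 genes and gave 2.94% false calls. The changes were given to 67, 67 and 66 genes, a far smaller share than the 52.9% called in the data. These rates may therefore not carry over to the data. Positions and overlaps came from GENCODE release 29, which held 58275 of the 58395 identifiers; positions printed for members are those of the deposited table. Promoter windows came from RefSeq.

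Members and lists were chosen with earlier results of these data known. The genes named were PLOD2, the members, the 4 list genes with the smallest adjusted p, and the 2 genes most like each tested member. Other complement genes of at least 1 FPKM in a group were named too. Overlapping genes and markers were added where a value rests on them. Further transamidase and NF-kB subunit genes were added beside PIGT and NFKB2. Some genes that this rule takes are not reported here, but remain in the counts and medians of their lists. Alternatives covered pseudocount, filter, scaling, variance model, replicate block, chromosome medians, GC content and length (known for 99.9% of tested genes; mgcv 1.9.3) and each library left out. Same-numbered libraries did not deviate together (correlations 0.014, 0.135 and -0.049).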

Additional observations from a re-analysis of the deposited data

How the results depend on the processing

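With 3 libraries per group and values under 1 FPKM for 5 members, low levels limit what can be called. C3 and PLOD2 kept their direction and call under every alternative run. Genes called higher numbered 1361 at a minimum of 5 FPKM against 3084. Leaving out a library gave 2239 to 3306 genes called higher and 1940 to 2547 lower. The replicate block, for numbers that do not pair the libraries, gave 2984 and 2335 and changed no call among the members. The cause of the changes below was not tested, except for the pseudocount. A larger pseudocount compresses low values more. Both TPM scalings give larger values than FPKM here, so the same pseudocount of 1 compresses low values less under them.

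Log2 fold changes of members not tested at 1 FPKM moved with pseudocounts of 0.1 and 0.5: C1R -0.45 and -0.27, C1S -1.04 and -0.52, CFB -1.47 and -0.81, CFI -0.56 and -0.22, SERPING1 0.97 and 0.28, against -0.18, -0.32, -0.52, -0.12 and 0.15. Under TPM, and under TPM that leaves out mitochondrial and ribosomal protein genes, they were -0.27 and -0.31, -0.69 and -0.77, -1.05 and -1.15, -0.31 and -0.36, and 0.54 and 0.61 in that order. Without a filter and with the pseudocount of 1, C1S, CFB, CFI and SERPING1 were called at -0.32, -0.52, -0.12 and 0.15, with limma adjusted p of 0.0130, 0.00249, 0.0265 and 0.0122. Without a filter and with 0.1, chosen after seeing the data, C1R and CFI were not called (-0.45 and -0.56), and C1S, CFB and SERPING1 were (-1.04, -1.47 and 0.97).

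CD59 was called with chromosome medians removed (-0.35), after correction for GC content and gene length (-0.56) and without sgControl replicate 1; leaving out a library gave -0.24 to -0.076. CD46 was -0.0022 after that correction. CD55 turned to -0.036 with median-of-ratios scaling, -0.15 after quantile normalization and -0.097 after the correction for GC content and length, and was -0.044 to 0.048 with a library left out. The summed membrane regulators differed by 0.069 under TPM and by -0.16 to 0.0095 with a library left out. DAB2 (0.0076) was -0.047, -0.13, -0.12 and -0.21 under median-of-ratios scaling, quantile normalization, removal of chromosome medians and that same correction. DIAPH3 (-0.024) was 0.097 and 0.060 under the 2 TPM scalings and 0.10 with chromosome medians removed. With a library left out, DAB2 ranged from -0.044 to 0.041, with -0.032 the other value below 0, and DIAPH3 from -0.074 to 0.0057, with 0.0011 the other value above 0.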

Other observations

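2 complement receptor genes under 1 FPKM were picked out after their values were seen. C3AR1, which encodes the receptor of the C3a fragment, had 0.193, 0.400 and 0.253 FPKM in sgControl, against 0.675, 0.640 and 0.505 FPKM in sgPLOD2, all higher and without overlap. In the authors' deposited table its adjusted p was 0.0199. ITGB2, the beta chain of complement receptors 3 and 4, had 0.866, 0.980 and 0.813 FPKM in sgControl, against 0.497, 0.551 and 0.572 FPKM in sgPLOD2, all lower. The deposited adjusted p of ITGB2 was 5.55e-05. Its alpha chain partners were almost absent. ITGAM had means of 0.014 FPKM in sgControl and 0.023 FPKM in sgPLOD2, and ITGAX had 0.012 FPKM in each group.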
